A study of Mus musculus with 8 samples.

Results

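The glucocorticoid receptor gene Nr3c1 and 5 genes that the receptor is known to induce, Tsc22d3, Fkbp5, Per1, Sgk1 and Zbtb16, are described here in follicular and progenitor CD4 T cells. They were taken by name, with earlier results of these data known, and are 6 of the 29924 gene names on the array. All 6 were among the 15764 genes tested, and 5 of them were well above background on all 8 arrays. The exception was Zbtb16. The probe with the highest mean signal stood for each gene. Nr3c1 and Per1 had a second probe each, which makes 8 of 39429 probes.

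Cells came from peripheral lymph nodes (pLN) of B6.Cg-Foxp3<tm1Mal> mice, in which Foxp3 expressing cells carry GFP. The mice were of both sexes and 8 to 14 weeks old, and all had been immunized s.c. with KLH in alum, so that every group is immunized and none is a resting control. The sort gates were GFP- PD1lo GL7- for naïve CD4 T cells (Tnaive, here naïve cells), GFP- PD1hi GL7+ for TFH cells, GFP+ PD1lo GL7- for Treg cells, and GFP+ PD1hi cells with or without GL7 for TFR cells. Each of the 4 cell types has 1 array from d12 and 1 from d25 p.i., with 25 ng of RNA from a pool of 8 to 15 mice. A difference between cell types is therefore a mean over both days (n = 2 arrays per cell type), written as log2 estimate ± standard error from limma, with p values adjusted across the tested genes by Benjamini-Hochberg. A gene counted as called when its adjusted p was below 0.05. At d25 the naïve and TFH arrays lay on 1 slide and the Treg and TFR arrays on another. In TFR versus TFH and Treg versus naïve cells, cell type and slide therefore cannot be told apart at d25. Levels are normalized signals in relative units (RU) and are not compared between genes.

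The sorted populations carried the markers of their labels. Foxp3, Lrrc32 and Il2ra were each at least 14489 RU on the Treg and TFR arrays and at most 358 RU on the others. In contrast, Ikzf2, the fourth gene of that marker list, also had 10506 and 10814 RU in TFH cells. All 4 follicular markers (Cxcr5, Bcl6, Pdcd1 and Il21) were called higher in TFH than in naïve cells and in TFR than in Treg cells. One array stood apart. Of a B cell list of 7, the 6 genes with a probe summed to 15928 RU in TFH cells at d25, against 5443 to 10022 RU on the other 7 arrays. Pax5, 1 of these 6, did not rise well above background on any array. Where leaving out the TFH array of d25 ended a call of a gene named here, the value without it is given too. The same holds where it moved a count of a list related to the receptor in TFH versus naïve cells. Counts of marker lists are given with all arrays. Those of the B cell, myeloid, CD8, Foxp3+ and NK and innate-like T cell lists also moved without it. The summed level of 7 NK and innate-like T cell genes, 5 of them tested, was 54796 and 55042 RU in TFR cells and 8593 to 19014 RU elsewhere. Nkg7 made up 53168 and 53612 RU of it in TFR cells. Myeloid sums ranged from 17690 to 30280 RU, of which Itgam made up 13020 to 28504 RU. Cd68 was called higher in TFH and TFR cells than in their progenitors (2.98 ± 0.16 and 2.76 ± 0.16, adjusted p = 0.000355 and 0.000884). Csf1r and Itgam were called lower in TFH cells (-0.38 ± 0.11 and -0.51 ± 0.12, adjusted p = 0.0452 and 0.0208). Without the TFH array of d25 Itgam gave -0.40. Lyz2 gave no call, at 1248 and 1258 RU in TFH and TFR cells at d25 and 205 to 461 RU elsewhere. The sum of Cd8a and Cd8b1 moved with the follicular comparison, at 4208 to 5118 RU in naïve and Treg cells and 2110 to 3174 RU in TFH and TFR cells, and Cd8b1 was called lower in both (-1.08 ± 0.16 and -0.96 ± 0.16, adjusted p = 0.00605 and 0.0111). Whether cells of other types contributed to the values below was not tested. In sorted bulk RNA, fewer cells expressing a gene and less RNA per cell cannot be told apart.

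Glucocorticoids such as corticosterone cross the membrane and bind a receptor that is held in the cytoplasm by a complex of heat shock protein 90 and cochaperones. The liganded receptor enters the nucleus, where it binds palindromic DNA elements and induces target genes, and also restrains genes driven by other factors, including many cytokine genes. Several targets feed back on the pathway. FKBP51, the product of Fkbp5, lowers the affinity of the receptor for its ligand, while GILZ, the product of Tsc22d3, carries anti-inflammatory effects in T cells. In lymphocytes the pathway is known for its effects on survival, trafficking and cytokine production, and circulating ligand follows the time of day.

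**Figure D1:**
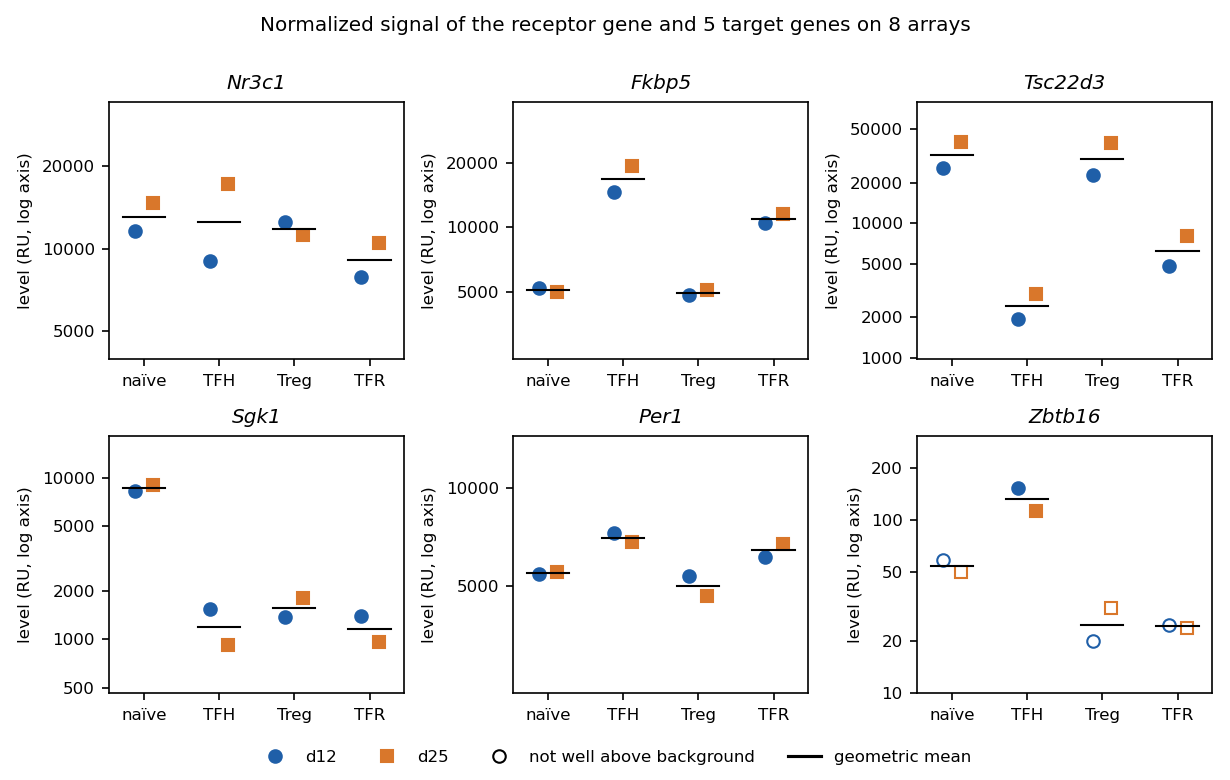
Normalized signal in RU (log axis) of the receptor gene and 5 target genes in naïve, TFH, Treg and TFR cells, with circles for d12, squares for d25, open symbols for values not well above background and bars for the geometric mean of both days. Fkbp5 lies between 10484 and 19290 RU in TFH and TFR cells and at most 5200 RU in their progenitors, Tsc22d3 shows the opposite order, and Sgk1 is high in naïve cells alone.

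Of the 5 genes above background on all arrays, 2 were called higher and 2 lower when TFH were compared with naïve cells. Zbtb16, which could be tested only because of its signal in TFH cells, so that its test is conditioned on that signal, is not counted. Over all genes tested, 46.5% were called in this comparison, 20.9% as higher and 25.6% as lower. In TFR versus Treg cells 1 of the 5 was called higher and 1 lower, where 39.6% of all genes were called (18.7% higher, 20.9% lower). The share of called genes among them is thus to be read against backgrounds in which a large part of all genes differed. Targets of the same receptor did not move together: in TFH cells Fkbp5 was up, Tsc22d3 and Sgk1 were down, and the receptor gene itself gave no call.

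Nr3c1 encodes the receptor (probe on chromosome 18, 39571641 to 39571700, build NCBI37). At d12 its level was 11606 RU in naïve, 9035 RU in TFH, 12559 RU in Treg and 7854 RU in TFR cells. At d25 it was 14724, 17290, 11163 and 10462 RU in the same order. TFH cells thus held both the highest value and one of the lowest, and their range overlapped that of every other cell type. By geometric mean the order was naïve (13072 RU), TFH (12499 RU), Treg (11840 RU) and TFR cells (9065 RU). Among these neighbours the arrays of Treg and TFR cells did not overlap, and the others did. None of the 4 pairwise differences was called by limma, nor was any of them below an unadjusted p of 0.05. TFH differed from naïve cells by -0.06 ± 0.26 (95% interval -0.74 to 0.61, adjusted p = 0.86), with -0.36 at d12 and 0.23 at d25. TFR differed from Treg cells by -0.39 ± 0.26 (95% interval -1.06 to 0.29, adjusted p = 0.293). These intervals include changes of up to about 1 log2 unit. Without the TFH array of d25, TFH minus naïve was -0.44 (adjusted p = 0.206). The second Nr3c1 probe (39574183 to 39574242) was dim, at 39 to 102 RU, and was well above background on the TFH and TFR arrays alone. It gave no call in any contrast.

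Fkbp5 (chromosome 17, 28536060 to 28536119) was higher in follicular cells on either background. It had 5200 and 5012 RU in naïve cells at d12 and d25, 14629 and 19290 RU in TFH, 4852 and 5079 RU in Treg, and 10484 and 11503 RU in TFR cells. Both follicular populations lay above both progenitors on every array, TFH above TFR cells, and the 2 progenitor populations overlapped. The rise was 3.29-fold in TFH versus naïve cells (1.72 ± 0.13, adjusted p = 0.000846) and 2.21-fold in TFR versus Treg cells (1.15 ± 0.13, adjusted p = 0.0041). TFR were below TFH cells by -0.61 ± 0.13 (adjusted p = 0.0337), in a comparison that calls 22.1% of all genes (11.6% higher, 10.5% lower). This call was lost under 10 of 18 alternatives in processing, including leaving out the TFH array of d25 (-0.44, adjusted p = 0.0874). Whether the rise differs between Foxp3+ and Foxp3- cells was tested as the difference of both follicular changes, which was not called (-0.57 ± 0.19, 95% interval -1.05 to -0.09 before adjustment, adjusted p = 0.143).

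Tsc22d3 (chromosome X, 137074094 to 137074153), the gene of the leucine zipper protein GILZ, moved the other way. Its level was 25866 and 39841 RU in naïve, 22601 and 39177 RU in Treg, 4802 and 7992 RU in TFR, and 1961 and 2996 RU in TFH cells. The ranges of naïve and Treg cells overlapped, and those of Treg, TFR and TFH cells were separate. TFH cells had 13.2-fold less than naïve cells (-3.73 ± 0.09, adjusted p = 8.41e-05), with -3.72 at d12 and -3.73 at d25. TFR cells had 4.8-fold less than Treg cells (-2.26 ± 0.09, adjusted p = 0.00048), with -2.23 and -2.29 on the respective days. The smaller fall among Foxp3+ cells gave a difference of 1.46 ± 0.13 (adjusted p = 0.00776), where 8.49% of all genes were called (4.03% higher, 4.46% lower). Without the day term, or without the Treg array of d12 or either TFR array, that adjusted p was 0.272, 0.0514, 0.0536 and 0.0537, at values of 1.39 to 1.49. All 4 cell types had more Tsc22d3 at d25 than at d12, by 0.61 to 0.79 log2 units.

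Sgk1 (chromosome 10, 21719507 to 21719566) encodes the serum- and glucocorticoid-regulated kinase, which acts downstream of phosphoinositide signals and phosphorylates FOXO factors. Its level was high in naïve cells alone. These had 8233 and 9062 RU, against 1549 and 928 RU in TFH, 1367 and 1814 RU in Treg, and 1405 and 967 RU in TFR cells. Thus naïve cells lay above all 6 other arrays, which overlapped one another. The fall was 7.2-fold in TFH cells (-2.85 ± 0.31, adjusted p = 0.00235) and 5.48-fold in Treg cells (-2.46 ± 0.31, adjusted p = 0.014), each against naïve cells. In Treg versus naïve cells Sgk1 was the 1 gene of the 6 that was called, where 9.88% of all genes were (5.89% higher, 3.98% lower). This call was lost without either naïve array or the Treg array of d12 (adjusted p 0.0683 to 0.0861), with slide as a block (0.0769), and when dim probes were tested too (0.096). From Treg to TFR cells the change was -0.43 ± 0.31 (95% interval -1.24 to 0.37, adjusted p = 0.315), with 0.04 at d12 and -0.91 at d25. The follicular change thus differed by 2.41 ± 0.44 between Foxp3+ and Foxp3- cells (adjusted p = 0.0405), which no longer passed when any single array was left out (2.02 to 2.81, adjusted p 0.0521 to 0.174), with slide as a block (0.0894) or when dim probes were tested too (0.179).

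**Figure D2:**
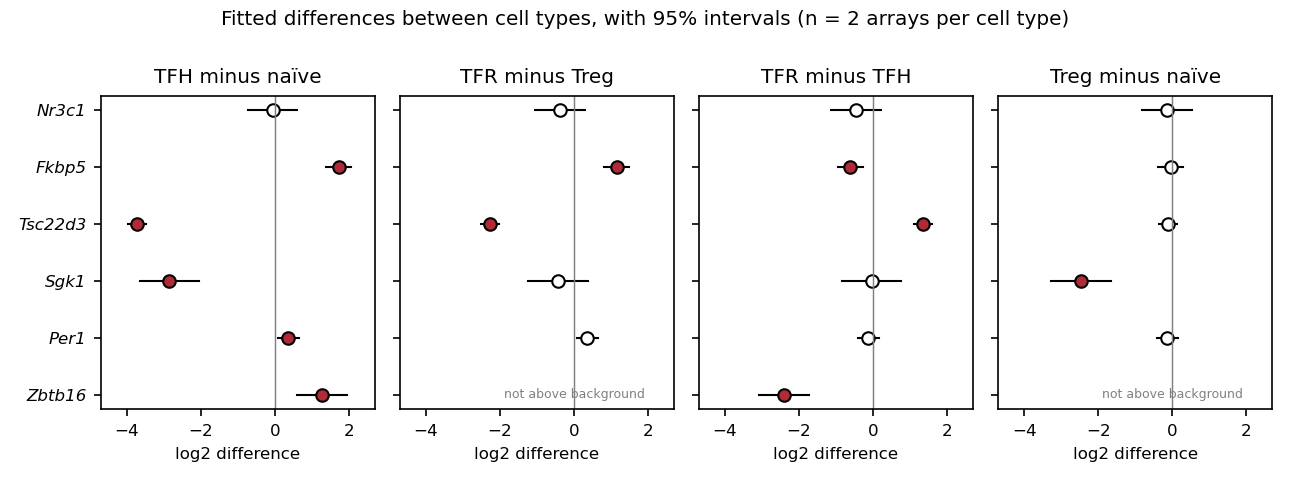
Fitted log2 differences between cell types (horizontal axes) with 95% intervals from limma, filled where the adjusted p was below 0.05. Tsc22d3 is lower and Fkbp5 higher in both follicular populations, Sgk1 is lower in TFH and in Treg than in naïve cells, and every interval of Nr3c1 includes 0. For Zbtb16 the filled points are fitted values, and its folds are given in the text as bounds.

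The start regions of both genes that fell in TFH cells are shown because they differ in the letters of a receptor element. The search took 12 promoter windows from the RefSeq table of build GRCm38.p6. They belong to 4 of the 6 genes, namely Sgk1 (6), Tsc22d3 (3), Per1 (2) and Fkbp5 (1). Nr3c1 and Zbtb16 were not part of the search, so their start regions are not described. Each window has 300 bases, from 250 before to 50 after a transcription start. They were searched on both strands for the full palindrome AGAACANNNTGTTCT, for the shorter GNACANNNTGTNC, for 1 arm of the palindrome, TGTTCT, and for the E box CACGTG, which clock factors bind. The full palindrome occurred in 3 of 32851 windows (0.00913%) and the shorter form in 0.475%. The single arm, which every palindrome contains, occurred in 19.0%, and the E box occurred in 7.15%. The 250 bases before the start are given 5′ to 3′ on the strand of the gene, with the match in capitals, the palindrome for Sgk1 (chr10:21993640-21993889, + strand) and a single arm for Tsc22d3 (chrX:140600523-140600772, - strand).
Sgk1: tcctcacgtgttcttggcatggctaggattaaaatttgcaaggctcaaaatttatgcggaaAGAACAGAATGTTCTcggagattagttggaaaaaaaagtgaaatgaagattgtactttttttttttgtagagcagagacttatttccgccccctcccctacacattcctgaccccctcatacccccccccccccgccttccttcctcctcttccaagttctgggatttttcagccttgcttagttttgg
Tsc22d3: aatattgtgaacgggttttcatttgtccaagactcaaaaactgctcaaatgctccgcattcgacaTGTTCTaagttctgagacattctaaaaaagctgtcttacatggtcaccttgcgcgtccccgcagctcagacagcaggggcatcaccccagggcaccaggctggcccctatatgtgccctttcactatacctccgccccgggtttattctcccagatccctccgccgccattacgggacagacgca
The Sgk1 match spans positions -189 to -175 from the start and also counts as the shorter form. The same window held another single arm outside the palindrome, and an E box at -246. The other 5 windows of Sgk1 held neither form of the palindrome, and 2 of them a single arm, at -195 and -13. The single arm in Tsc22d3 spans -185 to -180, and the other 2 windows of that gene held none. Neither Per1 nor Fkbp5 held an arm, and each had 1 E box, at -166 and -169. A match describes letters in these windows and is not a binding site, absence says nothing about the receptor, and which start a cell type used was not measured.

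Per1 (chromosome 11, 68923364 to 68923423) encodes a repressor of the circadian clock whose transcription also responds to glucocorticoids. Among the 5 genes above background throughout, its level varied least, with a root mean square deviation of 0.203 log2 units over the 8 arrays. It had 5441 and 5497 RU in naïve, 7246 and 6803 RU in TFH, 5343 and 4646 RU in Treg, and 6142 and 6699 RU in TFR cells. Both follicular populations lay above both progenitors on every array, but TFH and TFR cells were close to each other. TFH minus naïve was 0.36 ± 0.11 (1.28-fold, adjusted p = 0.0485) and TFR minus Treg 0.36 ± 0.11 (1.29-fold, adjusted p = 0.0527), so that these equal estimates fell on either side of the threshold. The first call was lost under 14 of 18 alternatives, including each array left out (0.33 to 0.40, adjusted p up to 0.203). The difference of both changes was 0.00 ± 0.15 (95% interval -0.40 to 0.40). The second Per1 probe, for another transcript, stayed near background throughout (20 to 32 RU), and averaging it in turned the TFH difference to -0.01.

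Zbtb16 (chromosome 9, 48462419 to 48462478) encodes PLZF, a zinc finger factor known from innate-like T cells. It was well above background on both TFH arrays, at 154 and 114 RU, and on none of the other 6. Naïve CD4 T cells read 59 and 50 RU, Treg cells 20 and 31 RU, and TFR cells 25 and 24 RU, of which 20 RU is the floor. TFH cells were at least 2.26-fold higher than naïve cells (adjusted p = 0.0153) and at least 2.85-fold higher than TFR cells (adjusted p = 0.00553). For these bounds a dimmer level was set to the dimmest signal that counted as well above background on its array. Zbtb16 passed the filter on dim probes through TFH cells alone, so these p values are conditioned on its signal there. With dim probes tested too they were 0.084 and 0.0501. The first call was also lost without either naïve array or the TFH array of d12, and the second without either TFR array. With normexp background correction the fitted differences were smaller, at 0.46 for TFH minus naïve and -0.65 for TFR minus TFH, so the bounds hold for the background correction of the authors. Of 5 tested genes of NK and innate-like T cells, Klrb1c (NK1.1) alone was called higher in TFH than in naïve cells. Klrb1c had 1484 and 3077 RU in TFH cells and 162 and 96 RU in naïve cells, but also 820 and 752 RU in TFR cells. Klrd1 and Klra1 were called lower in TFH cells (-2.88 ± 0.28 and -1.92 ± 0.22, adjusted p = 0.0016 and 0.00283). Nkg7 and Eomes were not called. Eomes had 303 and 1405 RU in TFH cells and 1317 and 1213 RU in naïve cells (-0.95 ± 0.79). Without the TFH array of d25 its difference was -2.32. Over all genes, 20.9% were called higher and 25.6% lower in this comparison. The part of such cells in the Zbtb16 signal was not tested.

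Between the days none of the 6 genes was called by limma, in a contrast with 11 called genes in all (0.0698% of those tested, 0.019% higher and 0.0507% lower at d25), and 1 of the 6 had an unadjusted p below 0.05. This was Tsc22d3 (0.69 ± 0.06, adjusted p = 0.057), which was called under 3 of 16 alternatives (adjusted p 0.0154 to 0.256 over all 16). Nr3c1 differed by 0.38 ± 0.19 (adjusted p = 0.239). Since all d12 arrays shared a slide and the d25 arrays lay on 2 others, day and slide cannot be told apart.

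Across the 8 arrays the log2 levels of Fkbp5 and Per1 ran together (Pearson r = 0.901) and opposite to Tsc22d3 (r = -0.947 and -0.913), while Nr3c1 had r between -0.145 and 0.276 with the 5 target genes. These are descriptions over 8 arrays of 4 cell types, and mainly restate the contrast of follicular and progenitor cells. The profile closest to a member was found as the smallest root mean square difference of gene-centred log2 levels among 13298 genes well above background on every array. For Tsc22d3 it was Bach2 (0.241, r = 0.992), a transcriptional repressor of lymphocytes, which had 9551 and 11563 RU in naïve, 699 and 1193 RU in TFH, 7571 and 9564 RU in Treg, and 2024 and 2461 RU in TFR cells. Mmp11 (0.341) and A130072N09Rik (0.378) followed. For Fkbp5 it was Ctsb, the gene of cathepsin B (0.082, r = 0.994), followed by Kif3a (0.121) and ENSMUST00000183928 (0.133). Per1 was closest to Copz1 (0.057), Ift20 (0.061) and Alkbh2 (0.064), Sgk1 to 2810001G20Rik (0.343), Gprc5b (0.359) and Spef2 (0.415), and Nr3c1 to 5830469G19Rik (0.111), 1110035E04Rik (0.114) and Hibadh (0.117).

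Chaperones that hold the receptor and proteins that set its ligand supply moved in both directions. Of the 9 tested genes of 11, 2 were called higher and 1 lower in TFH versus naïve cells (median 0.05, all genes -0.07), and 1 higher and 1 lower in TFR versus Treg cells (median 0.15, all genes -0.08). These are 33.3% and 22.2% of the list, against 46.5% and 39.6% of all genes, which in a list of 9 is a difference of few genes and was not tested. Hsp90aa1, the inducible heat shock protein 90, was higher in both (0.40 ± 0.08 and 0.38 ± 0.08, adjusted p = 0.0162 and 0.0242). Fkbp4, the cochaperone FKBP52 that competes with FKBP51 for the receptor complex, was lower in both (-0.47 ± 0.08 and -0.56 ± 0.08, adjusted p = 0.00869 and 0.00697), opposite in sign to Fkbp5. Its level was 3485 and 3827 RU in naïve, 2552 and 2717 RU in TFH, 4024 and 4223 RU in Treg, and 2656 and 2935 RU in TFR cells, with no overlap between follicular and progenitor arrays. Abcb1a encodes a transporter that exports steroids. It rose in TFH (1.42 ± 0.26, adjusted p = 0.011) and in Treg cells (2.47 ± 0.26, adjusted p = 0.00829), each versus naïve cells. Hsd11b1, whose enzyme regenerates active glucocorticoid, was lower in TFR (15757 and 16982 RU) than in TFH cells (22829 and 32862 RU) by -0.74 ± 0.15 (adjusted p = 0.0277). Nr3c2, the mineralocorticoid receptor gene, and Hsd11b2 were not well above background in both arrays of any cell type. Without the TFH array of d25, the calls of Hsp90aa1 and Abcb1a in TFH versus naïve cells and of Hsd11b1 in TFR versus TFH cells were lost (0.35, 1.35 and -0.58, adjusted p = 0.0521, 0.0576 and 0.0987).

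Of the 10 coactivators and corepressors of nuclear receptors, all tested, none was called higher and 3 lower in either comparison (medians -0.26 and -0.38, with 4 and 5 genes at an unadjusted p below 0.05 in limma). Over all genes, 25.6% and 20.9% were called lower, so these counts are close to the background. Ncoa2, Ncoa3 and Med1, which connect receptors to histone acetylation and the transcription machinery, were these 3 in both. Ncoa3 was lower by -0.45 ± 0.10 in TFH and by -0.86 ± 0.10 in TFR cells (adjusted p = 0.0189 and 0.00414).

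**Figure D3:**
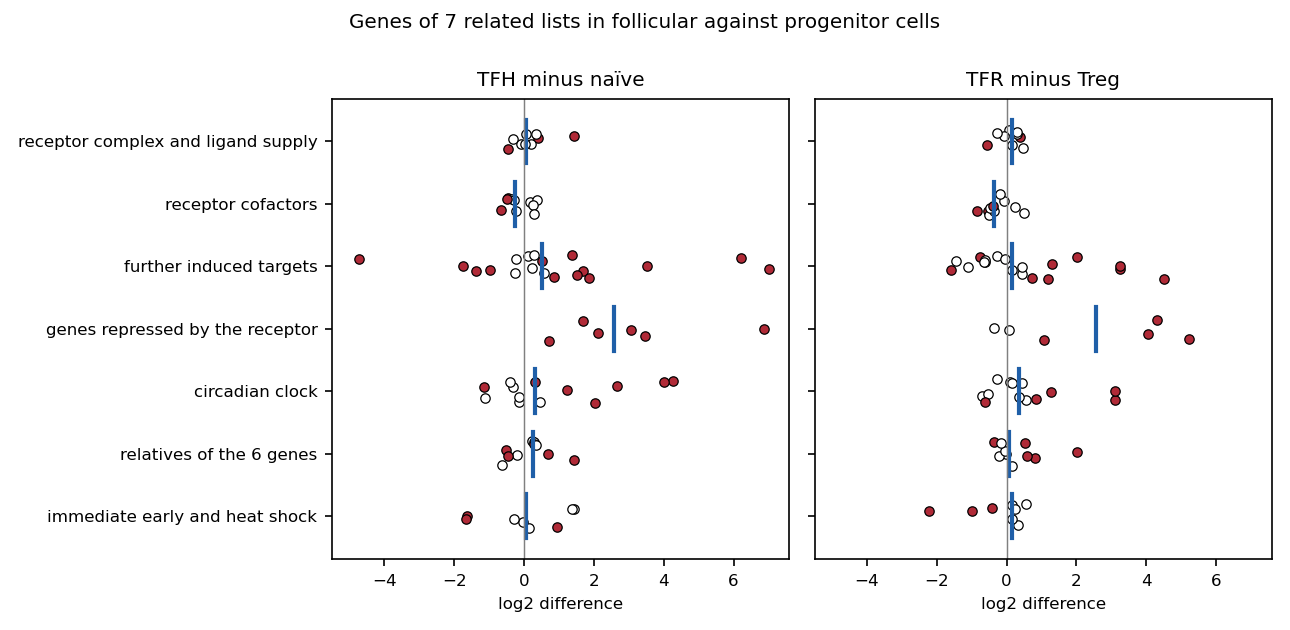
Fitted log2 differences (horizontal axes) of the tested genes of 7 lists in TFH minus naïve cells (left) and TFR minus Treg cells (right), filled where the adjusted p was below 0.05, with the median of each list as a vertical bar. Induced targets spread to both sides, whereas Il4 and Ifng among the genes repressed by the receptor lie to the right in both panels (6.86 and 3.47, 5.21 and 4.05), and fitted values of genes not above background in a cell type are no folds.

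Further induced targets spread to both sides. Of the 19 tested genes of 20, 9 were called higher and 4 lower in TFH versus naïve cells (median 0.52), and 7 higher and 2 lower in TFR versus Treg cells (median 0.14). Over all genes 20.9% were called higher and 25.6% lower in the first of these comparisons, and 18.7% and 20.9% in the second. Without the TFH array of d25 the first counts were 6 and 3 (median 0.55). Il1r2, the decoy receptor for IL1, rose by 7.03 ± 0.37 in TFH and by 4.51 ± 0.37 in TFR cells (adjusted p = 0.000316 and 0.00187). Cebpd was not well above background in naïve or Treg cells, passed the filter through follicular cells alone, and was at least 49.8-fold higher in TFH and at least 9.31-fold higher in TFR cells (adjusted p = 0.000292 and 0.00272). Of the 18 genes other than Cebpd, 8 were called higher and 4 lower in TFH versus naïve cells. In TFR versus Treg cells 6 of these 18 were called higher and 2 lower. The chemokine receptor gene Cxcr4 rose by 3.52 ± 0.30 and 2.01 ± 0.30 (adjusted p = 0.00118 and 0.00824). Opposite to these, Il7r, the IL7 receptor gene, fell by 4.73 on the log2 scale in TFH cells (SE 0.29, adjusted p = 0.000501), whereas TFR minus Treg was -0.63 ± 0.29 (adjusted p = 0.151). Mt1, a metallothionein gene, rose by 3.24 ± 0.40 in TFR cells (adjusted p = 0.0048).

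Among 8 genes that the receptor is known to repress, Il5 and Ptgs2 were not tested, and Il13 and Csf2 passed the filter through follicular cells alone. The other 4 (Il2, Il4, Ifng and Tnf) were above background on all arrays and were called higher in TFH than in naïve cells, and 2 of them in TFR than in Treg cells. Over all genes tested, 20.9% and 18.7% were called higher in these comparisons. Without the TFH array of d25, Il2 lost its call in TFH cells (0.90, adjusted p = 0.0524). This list consists of cytokine genes and Ptgs2, and several of its cytokines are products of TFH cells. Il4 had 843 and 451 RU in naïve, 68122 and 74904 RU in TFH, 547 and 210 RU in Treg, and 12567 and 12554 RU in TFR cells. It rose by 6.86 ± 0.41 in TFH and by 5.21 ± 0.41 in TFR cells (adjusted p = 0.000452 and 0.00172). Ifng rose by 3.47 ± 0.43 and 4.05 ± 0.43 (adjusted p = 0.00349 and 0.00343). Il13 was at least 3.48-fold higher in TFH and at least 7.5-fold higher in TFR cells (adjusted p = 0.00382 and 0.00236). Tnf rose in TFH cells (2.11 ± 0.11, adjusted p = 0.000293), and TFR minus Treg was 0.08 ± 0.11 (adjusted p = 0.6).

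Per1 belongs to the circadian clock, of which 13 of 16 further genes were tested. In TFH versus naïve cells 6 were called higher and 1 lower (median 0.30), and in TFR versus Treg cells 4 higher and 1 lower (median 0.34). These are 53.8% and 38.5% of the list, near the 46.5% and 39.6% of all genes. Without the TFH array of d25 the first counts were 5 and 2. Nr1d1 and Ciart passed the filter through follicular cells alone. Of the other 11 genes, 5 were called higher and 1 lower in TFH versus naïve cells, and 4 and 1 in TFR versus Treg cells. Nfil3, Bhlhe40 and Rora, which also act in lymphocyte differentiation, rose by 4.28 ± 0.27, 4.0 ± 0.34 and 2.65 ± 0.24 in TFH cells (adjusted p = 0.000509, 0.00113 and 0.00144), and by 3.1 ± 0.27, 3.11 ± 0.34 and 1.28 ± 0.24 in TFR cells (adjusted p = 0.00213, 0.00362 and 0.0157). Arntl, the gene of the positive clock factor BMAL1, was higher by 1.22 ± 0.11 and 0.85 ± 0.11 (adjusted p = 0.00135 and 0.00555). Dbp, an output gene of the clock, was lower by -1.15 ± 0.17 and -0.61 ± 0.17 (adjusted p = 0.0059 and 0.0433). Per2, listed with the induced targets, was called higher in TFH (0.87 ± 0.19, adjusted p = 0.0201, and 0.0932 without the TFH array of d25) but not in TFR cells (-0.62 ± 0.19, adjusted p = 0.0587), and read 69 and 134 RU in naïve cells, of which 1 array was well above background. The hour at which nodes were collected is not given in the sources used here.

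Relatives of the members moved in both directions. Of 10 tested genes of 12, 3 were called higher and 2 lower in TFH versus naïve cells (median 0.26), and 4 higher and 1 lower in TFR versus Treg cells (median 0.07), which is 50% of the list in each, against 46.5% and 39.6% of all genes. Without the TFH array of d25 the first counts were 2 and 1. Tsc22d1, a relative of the falling Tsc22d3, had 331 and 351 RU in Treg and 1109 and 1688 RU in TFR cells, a rise (2.01 ± 0.20, adjusted p = 0.00302). In TFH minus naïve cells it was -0.64 ± 0.20 (adjusted p = 0.0533). Sgk3 was higher by 0.28 ± 0.08 in TFH and by 0.58 ± 0.08 in TFR cells (adjusted p = 0.0441 and 0.00725), the first being 0.116 without the TFH array of d25. Fkbp2 rose, as did Fkbp5 (1.44 ± 0.09 and 0.82 ± 0.09, adjusted p = 0.000544 and 0.00387), while Fkbp1a, which binds FK506, was lower (-0.51 ± 0.09 and -0.35 ± 0.09, adjusted p = 0.00829 and 0.0302).

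Immediate early and heat shock genes were examined because handling of cells can change them. Of 8 tested genes of 11, 1 was called higher and 2 lower in TFH versus naïve cells (median 0.05, 6 genes at an unadjusted p below 0.05 in limma). In TFR versus Treg cells none was called higher and 3 lower (median 0.15, 4 genes at an unadjusted p below 0.05 in limma). Either is 37.5% of the list, against 46.5% and 39.6% of all genes, and without the TFH array of d25 the first counts were 2 and 3. Ier2 was lower by -1.67 ± 0.11 and -0.98 ± 0.11 (adjusted p = 0.000537 and 0.00363) and Jun by -1.62 ± 0.30 and -2.22 ± 0.30 (adjusted p = 0.0112 and 0.00596), whereas Egr1 rose in TFH cells (0.93 ± 0.10, adjusted p = 0.00201). Fos and Fosb were called in neither comparison, but stood out on the TFH array of d12. There they read 748 and 1202 RU, against 123 to 389 and 219 to 516 RU on the other arrays. The genes of this list moved beside the members, and their part in the results was not tested.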

How the data were processed

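The authors extracted the spots with Agilent Feature Extraction 10.7.3.1 and deposited, per array, a background-corrected intensity for each spot (gPS), and for the series a table of normalized intensities. Their steps were repeated from the spots, namely geometric means, quantile normalization, a 75th percentile set to 1500 and a floor of 20. Of the spots, 86.45% to 89.18% remained after removal for flags, 1.42 times the interquartile range of 4 spots and a pixel coefficient of variation above 0.5. On a log2 scale the values correlated with the deposited table at r = 0.9994. An array had 18261 to 19867 probes well above background (over 50% of the spots so marked) and none saturated. Genes were tested if this held for both arrays of a cell type. limma 3.58.1 in R 4.3.3 was fitted on log2 values with cell type and day (3 residual degrees of freedom, prior 1.89). The one-way ANOVA of the methods needs replicates within a day. The 2 arrays of a cell type share no day, and arrays of a day are paired by that label. No source states whether cell types of a day came from the same mice.

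Members, lists and tests were chosen with earlier results of these data known. The rule for named genes was the 6 members, the called list genes with the largest difference (up to 4 per list and comparison), and the 3 nearest profiles per member, and other list genes were named for their role or relation to a member. Of 133 list genes 130 had a probe. Positions are those of the files (NCBI37), for which no annotation of exons was used here. All 6 main probes carried an accession found in RefSeq. Model and code were tested on simulated data for TFH versus naïve cells alone. No day or slide effect was simulated, and far fewer genes were changed than were called here. The other contrasts were not simulated. The alternatives numbered 18, with 1 more chosen after seeing the data, the lists without the TFH array of d25. The number of arrays limits precision.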

Additional observations from a re-analysis of the deposited data

Results flagged for a closer look

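For 2 of the 6 genes the follicular change differed between Foxp3+ and Foxp3- cells by a test of that difference in limma. For Tsc22d3, TFR minus Treg exceeded TFH minus naïve by 1.46 on the log2 scale, both being falls and that of TFH cells the deeper (adjusted p = 0.00776). For Sgk1 it was 2.41, as TFH cells lay far below naïve cells while Treg cells were already low (adjusted p = 0.0405). This call was lost when any single array was left out (adjusted p 0.0521 to 0.174), with slide as a block (0.0894), and when dim probes were tested too (0.179). That of Tsc22d3 was lost without the Treg array of d12, without either TFR array, and without the day term (0.0514 to 0.272). Over all genes tested, 8.49% were called in this contrast.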

How the results depend on the processing

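With all 18 alternatives tried, Tsc22d3, Fkbp5 and Sgk1 were called in TFH versus naïve cells, as were Tsc22d3 and Fkbp5 in TFR versus Treg cells. Signs turned for other estimates, among them Per1 in TFH versus naïve cells, which was called at 0.36, and Nr3c1 in TFR versus Treg cells (-0.39) and in the difference of the follicular changes (-0.32), and the cause was not tested. Averaging all probes gave -0.0096 for Per1 in TFH versus naïve cells, 0.25 for Nr3c1 in TFR versus Treg cells, and 0.26 for Nr3c1 in that difference. Keeping all spots gave -0.11 for Zbtb16 in TFR versus Treg cells. Normexp gave -0.031 for Per1 in the difference, the deposited values 0.017 for Zbtb16 between days, and slide as a block 0.12 for Nr3c1 in Treg versus naïve cells. Leaving out 1 array at a time, estimates that changed sign ranged for Nr3c1 from -0.44 to 0.31 (TFH versus naïve), -0.51 to 0.22 (Treg versus naïve) and -0.69 to 0.050 (difference), for Zbtb16 from -0.42 to 0.43 (TFR versus Treg) and -0.24 to 0.10 (days), for Sgk1 from -0.41 to 0.33 (TFR versus TFH) and -0.38 to 0.0022 (days), for Fkbp5 from -0.17 to 0.086 (Treg versus naïve), and for Per1 from -0.10 to 0.11 (difference) and -0.093 to 0.016 (days).

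Counts over all genes moved with fewer arrays or more genes tested. Leaving out 1 array gave 4309 to 6478 calls (7332 with all) in TFH versus naïve cells, 2494 to 6731 (6249) in TFR versus Treg, 942 to 2915 (3486) in TFR versus TFH, 416 to 1865 (1557) in Treg versus naïve, and 292 to 1096 (1339) in the difference. Testing dim probes too gave 3870, 1649, 702 and 418 in the last 4 of these. The fit without the replicate block, here the day by which the arrays are paired, gave 2213 in TFR versus TFH, 1000 in Treg versus naïve and 807 in the difference, and ended the calls of Tsc22d3 and Fkbp5 in TFR versus TFH cells (adjusted p = 0.0876 and 0.0542). Slide as a block gave 1349, 523 and 691 in these 3. Between days, 11 calls became 28 by percentile scaling, 855 by normexp, 6 with all spots, 797 for genes above background throughout, 1250 with an intensity trend, 0 by averaging probes and 0 without any 1 array (2683 to 4194 genes at an unadjusted p below 0.05 in limma in these last cases).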
